A study of Rattus norvegicus with 15 samples.

Results

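The nuclear genes of respiratory complexes II to V were followed in primary rat hepatocytes exposed to flutamide, a nonsteroidal antiandrogen whose use is limited by liver injury. Genes were taken by the symbol in the platform annotation: Sdh followed by a, b, c, d or af for complex II, Uqcr for complex III, Cox4 to Cox8 for complex IV and Atp5 for complex V. Pseudogenes were left out, and each gene was read from its probe set of highest mean. This gave 45 of the 14506 genes tested, with 7 genes in complex II, 7 in complex III, 15 in complex IV and 16 in complex V. Freshly isolated hepatocytes were left to adhere in microfluidic biochips for 24 h and then perfused at 25 µl/min for 24 h. Groups were DMSO solvent (5 arrays), 10 µM flutamide (6 arrays) and 100 µM flutamide (4 arrays). The sample titles number the biochips 10 to 16 (run 1, 7 arrays) and 20 to 27 (run 2, 8 arrays), and each run held all 3 groups. The labels do not say what the runs are, which strain was used, or whether biochips held cells of separate animals, so the p-values below describe the spread among these biochips and no more.

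The respiratory chain lies in the inner mitochondrial membrane. Complex II (succinate dehydrogenase) passes electrons from succinate to ubiquinone, complex III (cytochrome bc1) passes them on to cytochrome c, and complex IV (cytochrome c oxidase) passes them to oxygen. Complexes III and IV pump protons, and complex V (ATP synthase) lets protons back through a rotating ring to make ATP. Hepatocytes are rich in mitochondria and use this ATP for urea and glucose synthesis. Complex II is encoded wholly in the nucleus, whereas the others also hold subunits from mitochondrial DNA, which were not analysed here.

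The arrays correlated with each other at 0.952 to 0.991. One library lay away from the rest: the 10 µM array 23 had a median correlation of 0.967 with the others and an array quality weight of 0.205. The 100 µM array 15 (weight 0.427) and the 10 µM array 24 (weight 0.549) came next. All 8 hepatocyte markers lay above the 25th percentile of gene means (4.53 on the log2 scale). They averaged 10.49 to 11.04 on 10 µM arrays and 10.35 to 10.63 on 100 µM arrays, against 10.61 to 10.80 on DMSO arrays. At a limma unadjusted p under 0.05, 3 of 8 hepatocyte markers were higher and 1 lower at 10 µM (all genes, 7.65%). At 100 µM 3 of 8 were lower and 0 higher (all genes, 6.85%), with 0 called after adjustment at either dose. Kupffer cell and macrophage markers, of which 9 of 10 lay above it, averaged 5.91 to 7.31 on 10 µM arrays and 5.91 to 6.39 on 100 µM arrays, against 6.07 to 6.71 on DMSO arrays. At a limma unadjusted p under 0.05, 0 of these 10 markers were lower and 1 higher at 10 µM (all genes, 7.65%). At 100 µM 1 was lower and 1 higher (all genes, 6.85%). Without array 23, 6 of the 10 were lower and 1 higher at 10 µM (all genes, 8.49%). At 100 µM 4 were then lower and 1 higher (all genes, 9.29%). With or without that array 0 were called. Array 23 had the highest mean of all 15 arrays for the markers of hepatocytes (11.04), Kupffer cells and macrophages (7.31), stellate cells and fibroblasts (5.82) and endothelial cells (5.37, 3 of 6 markers measured), and the lowest for cholangiocytes (5.81, 3 of 4 measured). The part of other cells in the values below was not tested, and in these bulk samples fewer cells of a type and less RNA per cell cannot be told apart.

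None of the 45 genes passed the test for dose. With limma, the run as a block and p-values adjusted by Benjamini-Hochberg over 14506 genes (threshold 0.05), 0 of 45 were called at 10 µM, at 100 µM or between the doses, where the share over all genes was 0%, 0% and 0%. Before adjustment, p was under 0.05 for 1 of 45 genes at 10 µM against DMSO (all genes, 7.65%), 2 of 45 at 100 µM against DMSO (all genes, 6.85%) and 2 of 45 at 100 µM against 10 µM (all genes, 4.98%). The exception at both doses was *Atp5mc1*, one of the genes for the rotating ring of ATP synthase. Its log2 change was -0.44 at 10 µM, a 1.35-fold lower level, and -0.31 at 100 µM. The other gene at 100 µM was *Cox4i2*, which was 0.34 log2 units higher. Both doses share the DMSO arrays, so the 2 comparisons are not independent.

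The level of the whole group moved little. The median log2 change of the 45 genes was -0.02 at 10 µM and -0.03 at 100 µM, beside -0.003 and 0.02 over all genes. At 10 µM, 26 of 45 genes were lower and 19 higher (all genes, 50.9% lower), and without array 23 the counts were 24 and 21. At 100 µM, 25 were lower and 20 higher (all genes, 44.3% lower). The 95% interval of a single gene reached a median of 0.21 log2 units to either side at 10 µM and 0.23 at 100 µM. Changes of that size could be missed with this number of arrays. These are medians of unadjusted intervals and not bounds on what could be called. After adjustment over all genes, even the -0.44 of *Atp5mc1* at 10 µM was not called.

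**Figure D1:**
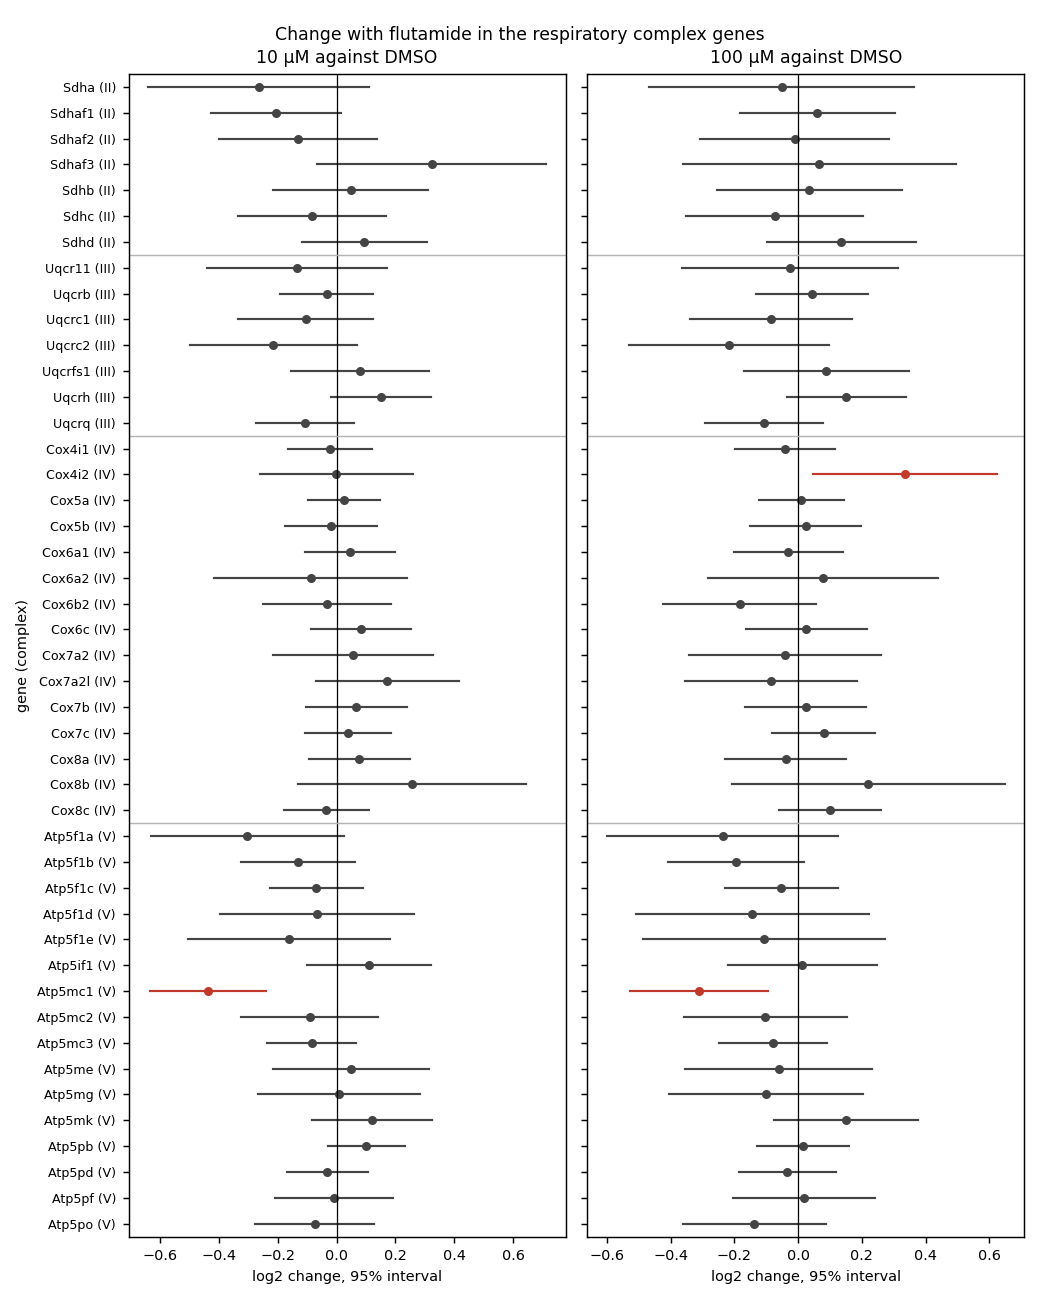
Log2 change (point) with its 95% interval (bar) for each of the 45 genes, at 10 µM against DMSO (left) and at 100 µM against DMSO (right), with the complex in brackets. Red marks an unadjusted p under 0.05: *Atp5mc1* in both panels and *Cox4i2* at 100 µM, and no gene passed after adjustment over all genes.

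By complex, the median change at 10 µM was -0.08 for complex II, -0.11 for complex III, 0.04 for complex IV and -0.07 for complex V. At 100 µM the medians were 0.03, -0.03, 0.02 and -0.09 in the same order. At 10 µM 4 of 7 genes were lower in complex II and 5 of 7 in complex III (all genes, 50.9%). There 6 of 15 were lower in complex IV and 11 of 16 in complex V. At 100 µM the counts were 3, 4, 6 and 12 in the same order (all genes, 44.3%). In complex V, 13 of 16 were lower at 10 µM in run 1 and 6 of 16 in run 2. At 100 µM, 14 of 16 were lower in run 1 and 9 of 16 in run 2. Without array 23, the median of complex II at 10 µM was 0.01 and that of complex III -0.05, with 0.01 for complex IV and -0.03 for complex V. So the sign of the complex II median at 10 µM rested on that array.

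A score was taken per array as the mean over a complex's genes of the log2 value less the gene's own mean. Complex II scores spanned -0.05 to 0.11 on DMSO arrays, -0.41 to 0.12 on 10 µM arrays and -0.08 to 0.10 on 100 µM arrays. For complex III the spans were -0.07 to 0.16, -0.25 to 0.10 and -0.05 to 0.05 in the same order of dose. Complex IV kept to -0.06 to 0.01, -0.04 to 0.12 and -0.02 to 0.04. Complex V spanned -0.05 to 0.17, -0.13 to 0.08 and -0.17 to 0.03. The dose groups overlapped in all 4 complexes. Array 23 was lowest for complex II (-0.41) and complex III (-0.25) and highest for complex IV (0.12).

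**Figure D2:**
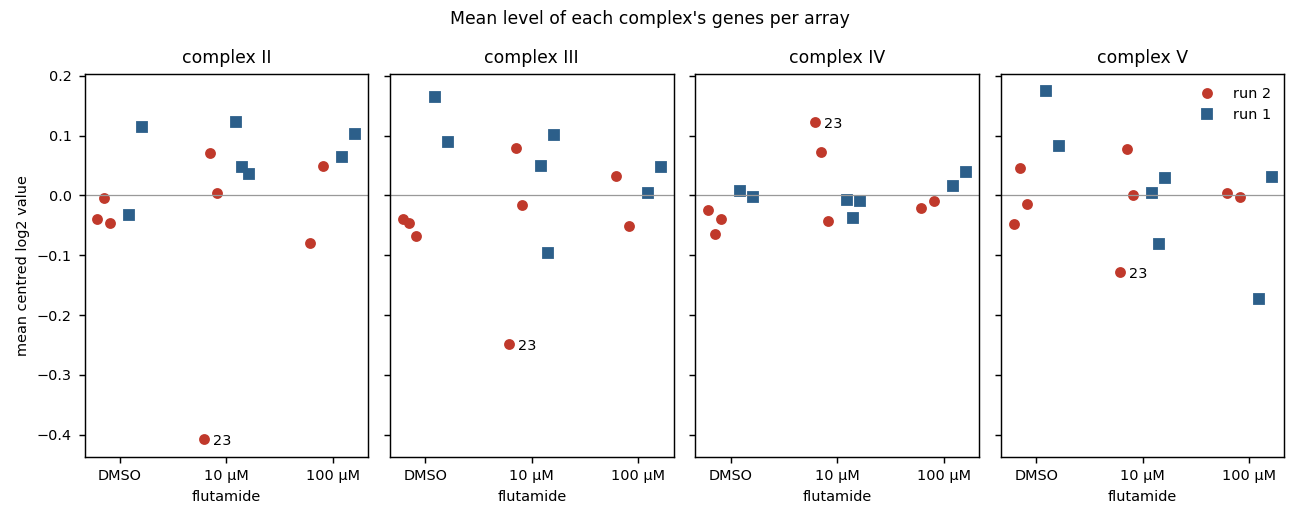
Complex score (mean log2 value of a complex's genes, each centred on its mean over 15 arrays) on each array, by dose, with run 2 as red circles and run 1 as blue squares. The groups overlap in every panel, and array 23 lies at -0.41 for complex II against 0.12 for complex IV.

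The split of array 23 between complexes was also seen gene by gene. It held the lowest of the 15 values for 16 of 45 genes: 5 of 7 in complex II, 4 of 7 in complex III, 7 of 16 in complex V and 0 of 15 in complex IV. It held the highest value for 4 genes, 3 of them in complex IV. Over all genes it was lowest for 17.4% and highest for 18.8%. The same array stood at the extreme of all 5 marker lists, as given above, and their part here was not tested.

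**Figure D3:**
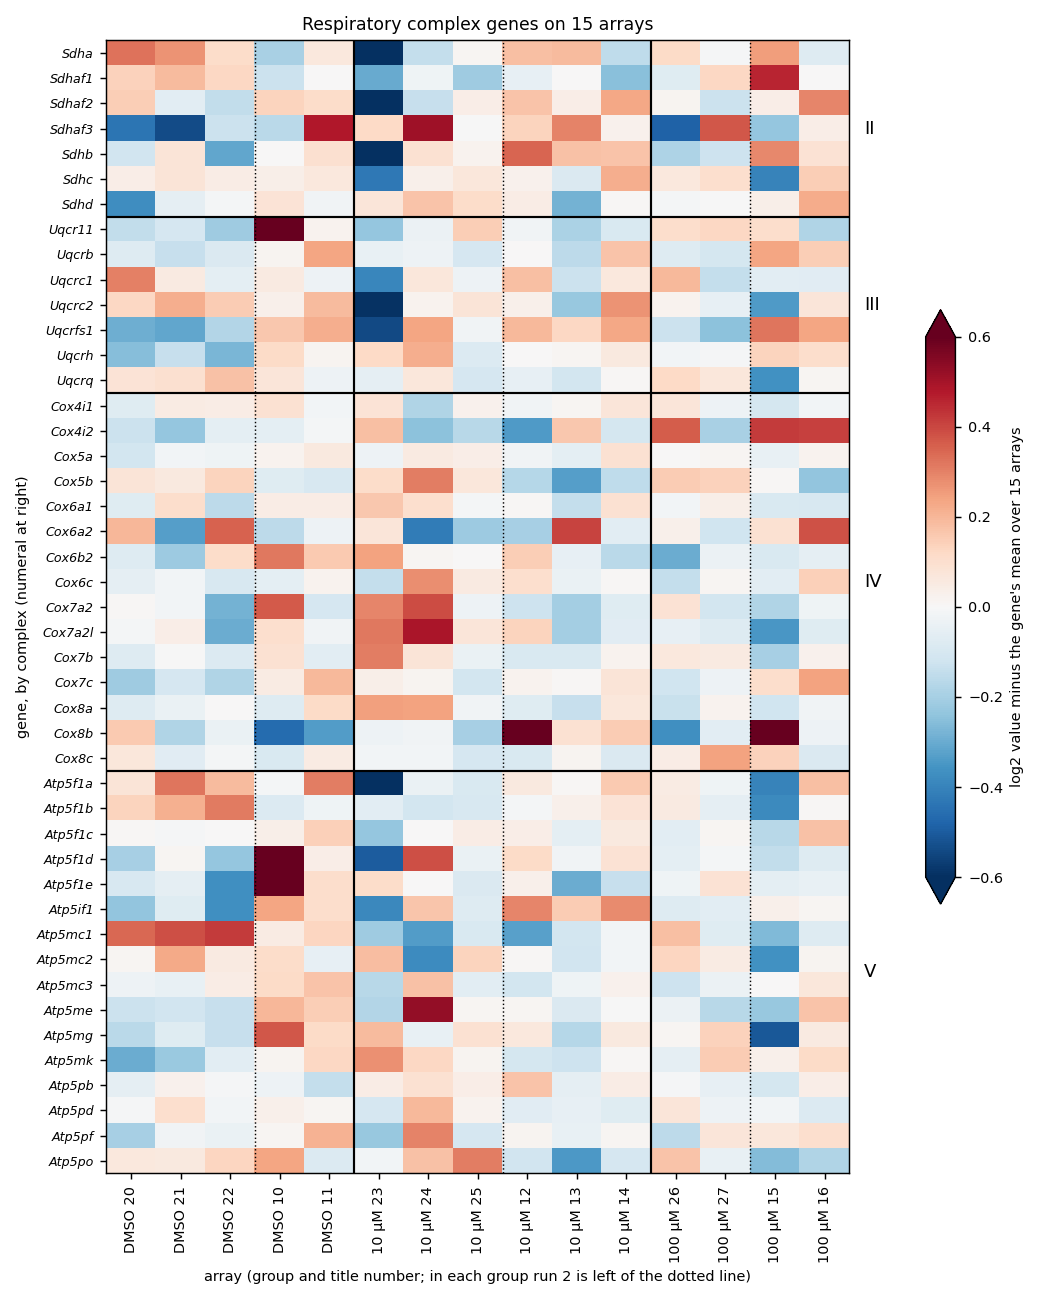
Deposited log2 value minus the gene's mean over 15 arrays (colour, saturated beyond 0.6 either way) for the 45 genes (rows, by complex) on each array (columns, by dose, with run 2 left of the dotted line in each group). The column of array 23 is blue for most genes of complexes II and III and red or pale for complex IV, and the row of *Atp5mc1* is red on the DMSO arrays of run 2 and pale on those of run 1.

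Complex II is built from the flavoprotein SDHA, the iron-sulfur subunit SDHB and the membrane anchors SDHC and SDHD, with assembly factors that include SDHAF1 (iron-sulfur insertion into SDHB) and SDHAF2 (flavin attachment to SDHA). *Sdha* had 7.56, 7.57 and 7.23 log2 units on the 10 µM arrays of run 1 and 6.44, 7.24 and 7.39 on those of run 2, against 7.19 and 7.44 on the DMSO arrays of run 1 and 7.71, 7.65 and 7.49 on those of run 2. The 6.44 of array 23 was far below the rest, which overlapped with DMSO. The change at 10 µM was -0.26 (SE 0.18, limma adjusted p = 0.783), and -0.09 without array 23. *Sdhaf1* had the lowest p of the complex at 10 µM, with a change of -0.21 (SE 0.10, limma adjusted p = 0.675). Its values spanned 4.43 to 4.73 at 10 µM and 4.65 to 5.18 at 100 µM, against 4.60 to 4.92 with DMSO, so that all 3 groups overlapped. *Sdhaf1* was 0.27 log2 units higher at 100 µM than at 10 µM (SE 0.11, unadjusted p = 0.0281, limma adjusted p = 0.93).

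The anchor gene *Sdhd* had the lowest p of complex II at 100 µM, with a change of 0.14 (SE 0.11, limma adjusted p = 0.832). *Sdhc*, the other anchor, averaged 10.77 over the 15 arrays and differed by -0.08 at 10 µM and -0.07 at 100 µM. *Sdhaf2* differed by -0.13 at 10 µM, and by -0.006 without array 23. *Sdhaf3*, a further assembly factor, varied most of all 45 genes (SD 0.33 over 15 arrays). It ranged from 7.50 to 8.01 at 10 µM and from 7.02 to 7.88 at 100 µM, against 6.97 to 7.99 with DMSO, and the 10 µM change was 0.32 (SE 0.18, limma adjusted p = 0.731).

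Complex III holds the core proteins UQCRC1 and UQCRC2, the Rieske iron-sulfur protein UQCRFS1 and small subunits such as UQCRB, which binds near the ubiquinone site, and the hinge protein UQCRH. *Uqcrh* had the lowest p at both doses, with a change of 0.15 at 10 µM (SE 0.08, limma adjusted p = 0.69) and 0.15 at 100 µM (SE 0.09, limma adjusted p = 0.779). Its values were 11.05 to 11.35 at 10 µM and 11.27, 11.24, 11.12 and 11.13 at 100 µM, against 11.25, 11.15, 10.88, 10.99 and 10.86 with DMSO. The DMSO arrays of run 2 were the low ones, and those of run 1 lay among the treated arrays. *Uqcrb*, read by 3 probe sets, had changes between -0.06 and -0.03 at 10 µM over them, and was 0.08 higher at 100 µM than at 10 µM (SE 0.08, limma adjusted p = 0.935). *Uqcrc1* differed by -0.11 at 10 µM and -0.09 at 100 µM, and *Uqcrfs1* by 0.08 and 0.09.

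In complex IV, *Cox4i1* and *Cox5a*, which wrap the catalytic core, had SDs of 0.08 and 0.05 over all 15 arrays, and *Cox5a* had the smallest SD of the 45 genes (median over all genes, 0.20). *Cox5a* differed by 0.03 at 10 µM (95% interval -0.10 to 0.15) and by 0.01 at 100 µM (-0.12 to 0.14). *Cox4i1* differed by -0.02 at 10 µM (-0.16 to 0.12) and by -0.04 at 100 µM (-0.20 to 0.12). *Cox6a1*, *Cox7a2* and *Cox8a*, the forms found in liver of subunits that also have other tissue forms, differed by 0.05, 0.06 and 0.08 at 10 µM and by -0.03, -0.04 and -0.04 at 100 µM. *Cox7a2* varied more over the arrays (SD 0.20) than *Cox6a1* (SD 0.10) and *Cox8a* (SD 0.12). *Cox7a2l*, which helps join complexes III and IV into supercomplexes, had the lowest p of the complex at 10 µM (change 0.17, SE 0.11, limma adjusted p = 0.781).

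Some forms of complex IV known from other tissues were dim. *Cox4i2* (lung), *Cox8b* (heart and skeletal muscle) and *Cox8c* (testis) were the 3 of 45 genes whose mean lay below the 25th percentile of gene means. *Cox4i2* had 4.94, 4.93, 4.89 and 4.33 log2 units at 100 µM, against 4.47, 4.51, 4.40, 4.29 and 4.47 with DMSO. At 10 µM its lowest, median and highest values were 4.18, 4.39 and 4.71. At 100 µM 3 of 4 arrays lay above all DMSO arrays and the fourth, array 27, lay within them. The change at 100 µM was 0.34 against DMSO (SE 0.13, unadjusted p = 0.0262, limma adjusted p = 0.698) and 0.34 against 10 µM (SE 0.13, unadjusted p = 0.0212, limma adjusted p = 0.93). *Cox8b* ranged from 3.80 to 4.61 at 10 µM and from 3.63 to 4.72 at 100 µM, against 3.54 to 4.16 with DMSO, and *Cox6a2*, the muscle form of subunit VIa, averaged 5.79 over the arrays, above that percentile, and differed by -0.09 at 10 µM and 0.08 at 100 µM. *Cox6b1* and *Cox7a1* were not analysed here.

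In complex V, the catalytic head is made of ATP5F1A and ATP5F1B around the ATP5F1C stalk, with ATP5F1D and ATP5F1E at its foot. *Atp5f1a* differed by -0.30 at 10 µM (SE 0.15, limma adjusted p = 0.682) and -0.24 at 100 µM (SE 0.17, limma adjusted p = 0.815), and by -0.16 at 10 µM without array 23. *Atp5f1b* had 10.12, 10.50, 10.56 and 10.44 log2 units at 100 µM, against 10.42, 10.48, 10.63, 10.71 and 10.81 with DMSO, a change of -0.20 (SE 0.10, limma adjusted p = 0.762). At 10 µM *Atp5f1b* spanned 10.39 to 10.58 and differed by -0.13 (SE 0.09, limma adjusted p = 0.8). *Atp5f1c* differed by -0.07 at 10 µM and -0.05 at 100 µM, and *Atp5f1d* by -0.07 and -0.14.

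The outer stalk keeps the head from turning, and small membrane subunits hold synthase dimers together. *Atp5po*, the stalk subunit that confers oligomycin sensitivity, differed by -0.08 at 10 µM and -0.14 at 100 µM. *Atp5pb*, the stalk's membrane subunit, had the lowest p of complex V between the doses, with a change of -0.09 at 100 µM against 10 µM (SE 0.06, limma adjusted p = 0.93). The dimer subunit gene *Atp5me* differed by 0.05 at 10 µM and -0.06 at 100 µM. *Atp5if1*, the inhibitor that stops the enzyme from running backwards, differed by 0.11 at 10 µM and 0.01 at 100 µM, and by 0.18 at 10 µM without array 23 (unadjusted p = 0.0478, limma adjusted p = 0.581).

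The membrane ring is built of identical c subunits, encoded by *Atp5mc1*, *Atp5mc2* and *Atp5mc3*, which differ in the targeting peptide and give the same mature protein. Of the 3 genes, *Atp5mc1* differed most between the groups; it was taken up here with its values already known. *Atp5mc1* had 9.28, 9.50 and 9.59 log2 units on the 10 µM arrays of run 1 and 9.40, 9.28 and 9.52 on those of run 2. It had 9.34, 9.53, 9.79 and 9.54 at 100 µM, against 9.66, 9.74, 9.95, 10.00 and 10.03 with DMSO. All 6 of the 10 µM arrays lay below all 5 DMSO arrays, while at 100 µM array 26 (9.79) lay within the DMSO range. This was the only gene of the 45 whose 10 µM arrays all lay below DMSO (all genes, 0.221%), and 0 of 45 lay all above (all genes, 0.414%). At 100 µM, 0 of 45 lay all below DMSO (all genes, 0.931%) and 0 of 45 all above (all genes, 1.13%).

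Means of *Atp5mc1* were 9.43 ± 0.13 at 10 µM (SD, n = 6) and 9.55 ± 0.18 at 100 µM (SD, n = 4), against 9.88 ± 0.17 with DMSO (SD, n = 5). The change at 10 µM was -0.44 (SE 0.09, 95% interval -0.63 to -0.24, limma unadjusted p = 0.000305, adjusted p = 0.285), the 10th lowest p of all 14506 genes. At 100 µM it was -0.31 (SE 0.10, 95% interval -0.53 to -0.09, limma unadjusted p = 0.00826, adjusted p = 0.649). The difference between the doses, 0.12 (95% interval -0.08 to 0.33), did not pass. In an exact two-sided permutation test of group labels within runs, chosen after seeing the data, the mean difference at 10 µM was -0.42 with p = 0.01 over 200 relabellings, of which the smallest possible p was 0.005. The same exact permutation test at 100 µM gave a mean difference of -0.30 with p = 0.0167 over 60 relabellings, which is the smallest they can give. The gene was taken up for these same values. The permutation p-values do not correct for its choice among 14506 genes and so add no support.

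*Atp5mc1* was lower in both runs. At 10 µM the change was -0.60 in run 2 (SE 0.11) and -0.24 in run 1, and at 100 µM it was -0.33 in run 2 and -0.26 in run 1. With run 1 arrays fitted alone, the SE was 0.13 at 10 µM (limma unadjusted p = 0.0952). At 100 µM that SE was 0.14 (limma unadjusted p = 0.101). In a fit of all 6 group-by-run cells, added after seeing the data, the run 2 change at 10 µM had a limma adjusted p of 0.0265, and *Atp5mc1* was the 1 of 45 genes called there (all genes, 1.18%). For 100 µM in run 2, 0 of 45 were called (all genes, 0.0483%). With run 2 arrays fitted alone, the adjusted p at 10 µM was 0.13. Over the 23 alternative settings of the dose model the 10 µM change of *Atp5mc1* stayed between -0.60 and -0.24 and passed the adjusted threshold in 0 of them. The DMSO arrays of run 2 were the 3 highest of all 15.

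The other ring genes lay closer to DMSO. *Atp5mc2* spanned 9.68 to 10.25 at 10 µM and had 9.70, 10.08, 10.19 and 10.11 at 100 µM, against 10.17, 10.02, 10.08, 10.29 and 10.12 with DMSO. Its changes were -0.09 at 10 µM (95% interval -0.32 to 0.14) and -0.10 at 100 µM (-0.36 to 0.15). *Atp5mc3* spanned 12.17 to 12.51 at 10 µM and had 12.34, 12.40, 12.21 and 12.30 at 100 µM, against 12.45, 12.51, 12.31, 12.29 and 12.38 with DMSO. Its changes were -0.09 at 10 µM (-0.24 to 0.07) and -0.08 at 100 µM (-0.25 to 0.09). Each has a second probe set, and these gave changes of -0.10 for both genes at 10 µM. Whether *Atp5mc1* differed from its paralogues in its response was not tested.

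**Figure D4:**
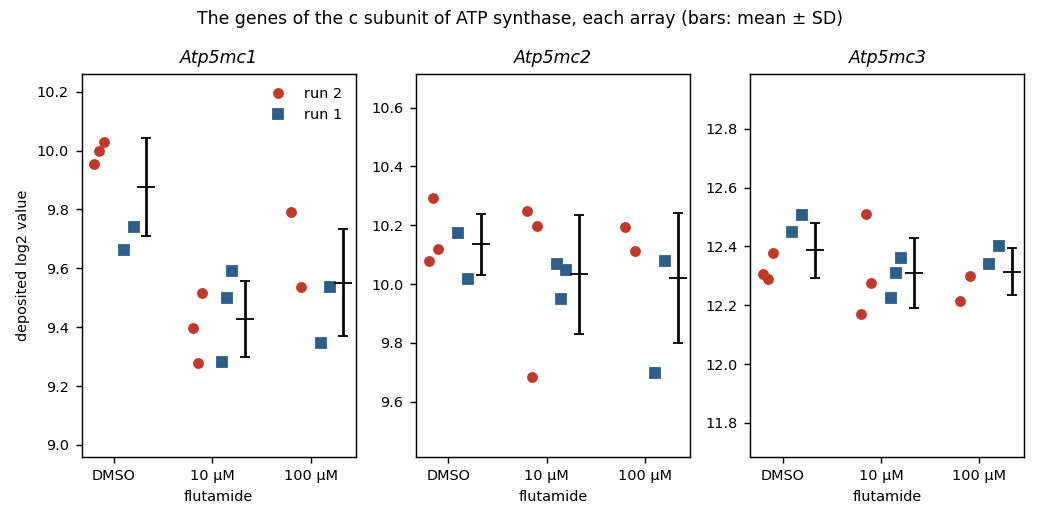
Deposited log2 value of the c subunit genes on each array by dose, with run 2 as red circles, run 1 as blue squares and the mean ± SD of each group as a bar; the panels span equal ranges. For *Atp5mc1* all 10 µM arrays lie at or below 9.59 and all DMSO arrays at or above 9.66, while the groups overlap for *Atp5mc2* and *Atp5mc3*.

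The start-site windows of the ring genes are shown because separate genes give 1 mature protein. Each runs from 250 bases before to 50 after the start in RefSeq on GRCr8, on the gene's strand: chr10:81523296-81523595 (minus) for *Atp5mc1*, chr7:135678169-135678468 (minus) for *Atp5mc2* and chr3:79220615-79220914 (minus) for *Atp5mc3*. Capitals mark matches, on either strand, to motifs of factors known to act on respiratory genes: NRF1 (GCGCATGC), GABP and other ETS factors (CCGGAAG), YY1 (AAGATGGC) and ERR (AAGGTCA).
Atp5mc1: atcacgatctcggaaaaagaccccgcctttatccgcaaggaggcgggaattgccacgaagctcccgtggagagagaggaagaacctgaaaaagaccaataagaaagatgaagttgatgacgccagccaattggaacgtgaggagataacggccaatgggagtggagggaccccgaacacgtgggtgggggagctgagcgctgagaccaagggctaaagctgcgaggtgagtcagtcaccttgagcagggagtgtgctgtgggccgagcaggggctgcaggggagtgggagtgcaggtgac
Atp5mc2: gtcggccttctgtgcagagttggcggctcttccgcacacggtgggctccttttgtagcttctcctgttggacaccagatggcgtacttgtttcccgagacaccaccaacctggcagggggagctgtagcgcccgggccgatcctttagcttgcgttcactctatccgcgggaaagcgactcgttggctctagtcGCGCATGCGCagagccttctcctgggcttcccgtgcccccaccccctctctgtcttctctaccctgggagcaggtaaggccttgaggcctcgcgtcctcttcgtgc
Atp5mc3: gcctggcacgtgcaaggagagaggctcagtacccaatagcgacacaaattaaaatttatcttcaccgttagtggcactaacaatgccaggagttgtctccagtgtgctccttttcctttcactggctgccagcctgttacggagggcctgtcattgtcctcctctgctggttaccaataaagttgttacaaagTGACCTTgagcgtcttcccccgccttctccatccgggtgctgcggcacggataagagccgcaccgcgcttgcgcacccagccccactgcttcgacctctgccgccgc
The *Atp5mc1* window held 0 matches. The *Atp5mc2* window held 2 overlapping NRF1 matches, 1 on each strand, and the *Atp5mc3* window held 1 ERR match on the opposite strand.

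Windows were found for 39 of the 45 genes, and 24 of the 39 held at least 1 of the 4 motifs. The ETS core was in 17 of 39 windows (43.6%), against 12.9% of the windows of 12518 tested genes and 8.75% of all 33469 windows. The NRF1 core was in 7 (17.9%), against 3.84% and 2.47%. YY1 was in 6 (15.4%), against 4.15% and 3.17%. The ERR motif was in 7 (17.9%), against 3.38% and 4.61%. A match is a run of letters and not a shown binding site, and a window without one says nothing of the factor.

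The runs differed in some of these genes. With dose in the model, 31 of 45 genes were lower in run 2 than in run 1, including all 7 of complex II and 6 of 7 of complex III (all genes, 49.2% lower). Without array 23 the count was 24 of 45, with 4 of 7 in complex II and 4 of 7 in complex III (all genes, 51.6% lower). At an unadjusted p under 0.05, 8 of 45 differed (all genes, 11.0%), and at an adjusted p under 0.05 0 of 45 did (all genes, 0.545%). *Cox5b*, a zinc-binding subunit of complex IV, had 10.46, 10.44 and 10.52 with DMSO, 10.49, 10.69 and 10.45 at 10 µM and 10.54 and 10.52 at 100 µM in run 2. In run 1 *Cox5b* had 10.31 and 10.29 with DMSO, 10.21, 10.05 and 10.23 at 10 µM and 10.39 and 10.15 at 100 µM. All run 2 arrays lay above all run 1 arrays, which held for 1 of 45 genes (all genes, 0.207%), while 0 of 45 lay all below (all genes, 0.407%). The difference was 0.28 (SE 0.06, limma adjusted p = 0.0652). With single arrays left out, only the fit without the 100 µM array 15, the highest of run 1, called it (limma adjusted p = 0.0477). Leaving out the array nearest the other run favours a call, so that fit adds no support.

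*Uqcrfs1* went the other way. It had 8.09, 8.07 and 8.21 with DMSO, 7.84, 8.62 and 8.36 at 10 µM and 8.26 and 8.13 at 100 µM in run 2. In run 1 *Uqcrfs1* had 8.54 and 8.60 with DMSO, 8.58, 8.51 and 8.61 at 10 µM and 8.70 and 8.62 at 100 µM. The runs overlapped only through array 24 (8.62). The difference was -0.39 (SE 0.09, limma adjusted p = 0.0842). With single arrays left out, only the fit without array 24 called it (limma adjusted p = 0.0169). Leaving out the overlapping array favours a call, so that fit adds no support. *Sdhb* differed by -0.31 (SE 0.10, limma adjusted p = 0.26) and *Atp5if1* by -0.29 (SE 0.08, limma adjusted p = 0.161). *Atp5po* differed by 0.22 (SE 0.08, limma adjusted p = 0.318).

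Changes with flutamide often had opposite signs in the runs. At 10 µM, 13 of 45 genes (28.9%) had the same sign in both, beside 43.1% of all genes, and 24 were higher in run 2 and lower in run 1. At 100 µM, 21 of 45 (46.7%) had the same sign, beside 52.1%. The median change of the 45 genes at 10 µM was 0.07 in run 2 and -0.07 in run 1, and at 100 µM it was 0.01 in run 2 and -0.09 in run 1. The difference between runs in the 10 µM change had an unadjusted p under 0.05 for 11 of 45 genes (all genes, 10.2%), and in the 100 µM change for 4 of 45 (all genes, 6.08%). After adjustment, 0 of 45 passed at 10 µM (all genes, 0.0414%) and 0 of 45 at 100 µM (all genes, 0.00689%). Without the DMSO array 10, the 10 µM count was 2 of 45, beside 7.11% of all genes.

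**Figure D5:**
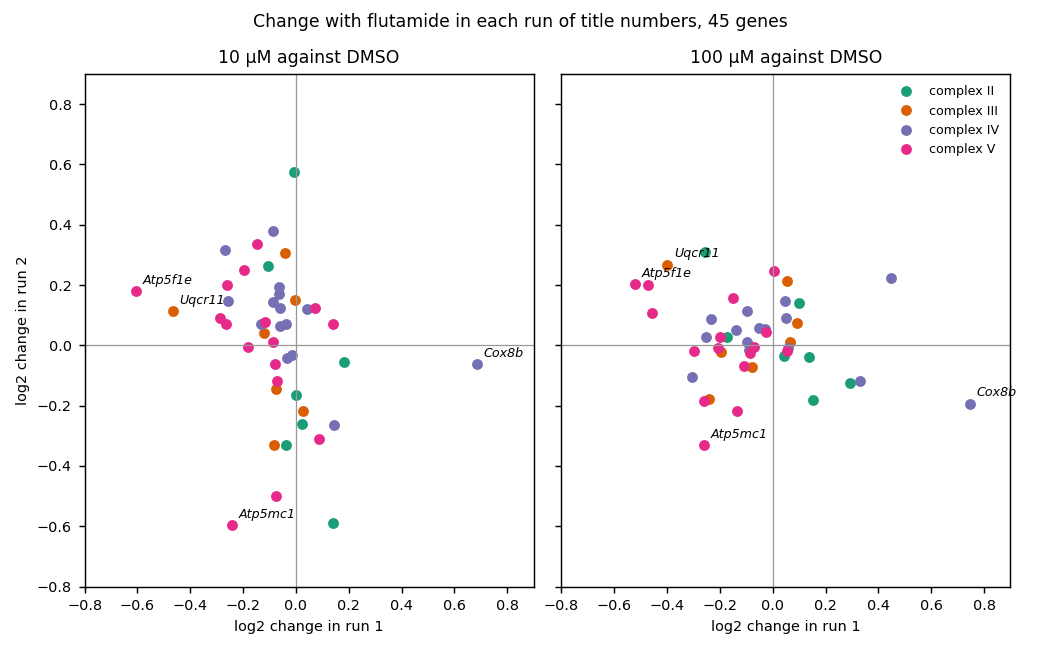
Log2 change of each of the 45 genes in run 2 (vertical) against its change in run 1 (horizontal), at 10 µM (left) and 100 µM (right), coloured by complex. *Atp5mc1* lies at lower left in both panels, and at 10 µM 24 genes lie at upper left (lower in run 1, higher in run 2).

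The 10 µM array 24 held the highest of 15 values for 10 of the 45 genes (all genes, 8.95%). The DMSO array 10 held it for 6 of 45 (all genes, 4.72%). *Atp5f1e*, the smallest subunit of the head, had 9.97 on that array and 9.24, 9.04, 9.08 and 8.76 on the other DMSO arrays. At 10 µM *Atp5f1e* lay between 9.04 and 9.25 in run 2 and between 8.83 and 9.16 in run 1. The other 4 DMSO arrays overlapped with the 10 µM arrays. The 10 µM change of *Atp5f1e* was 0.79 higher in run 2 than in run 1 (SE 0.25, limma unadjusted p = 0.00798, adjusted p = 0.342). *Atp5mk*, a dimer subunit, followed with 0.48 (SE 0.15, limma unadjusted p = 0.00828, adjusted p = 0.342).

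Other genes of the pathway were counted from lists, and with the run as a block none passed for dose after adjustment. Over all genes, 50.9% were lower at 10 µM and 44.3% at 100 µM, and 7.65% and 6.85% had an unadjusted p under 0.05. Complex I, which feeds the chain from NADH, had 23 of 36 genes lower at 10 µM and 23 of 36 at 100 µM. Without array 23 the majority at 10 µM turned, with 17 of 36 lower (all genes, 53.6% lower). Before adjustment, p was under 0.05 for 1 lower and 1 higher gene at 10 µM and for 0 at 100 µM. Among citric acid cycle enzymes, 11 of 11 were lower at 10 µM and 10 of 11 at 100 µM. In that list p was under 0.05 before adjustment for 3 of 11 at 10 µM, among them *Suclg1* (succinyl-CoA ligase, -0.30, SE 0.10, limma adjusted p = 0.447) and *Ogdh* (oxoglutarate dehydrogenase, -0.42, SE 0.19, limma adjusted p = 0.637). In run 2 all 11 were lower at 10 µM, while in run 1 9 of 11 were higher. At 100 µM all 11 were lower in run 2, while in run 1 7 of 11 were higher. The DMSO arrays of run 2, shared by both doses, averaged higher than those of run 1 for all 11. In the group-by-run fit 1 of 11 was called in run 2 at 10 µM, *Ogdh* (-0.91, SE 0.17, limma adjusted p = 0.0269). Of 36 complex I genes 1 was called there, the assembly factor gene *Ndufaf4* (-0.75, SE 0.09, limma adjusted p = 0.00499). Over all genes 1.18% were called there, and the 10 µM arrays of run 2 include array 23. Without array 23, 8 of 11 citric acid cycle genes were lower at 10 µM and 1 had an unadjusted p under 0.05 (all genes, 8.49%).

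Of 18 measured assembly factors of complexes III and IV, 11 were lower at 10 µM and 8 at 100 µM. Without array 23, 8 of 18 were lower at 10 µM, so the majority turned there too. *Surf1*, needed to build complex IV, was higher by 0.29 at 10 µM (SE 0.12, limma adjusted p = 0.595) and by 0.32 at 100 µM (SE 0.13, limma adjusted p = 0.708). *Lrpprc*, which stabilises mitochondrial mRNAs, differed by -0.48 at 10 µM (SE 0.19, limma adjusted p = 0.56). Of 4 assembly factors of ATP synthase, 3 were lower at 10 µM and 2 at 100 µM. Without array 23, 1 of these 4 was lower at 10 µM. *Atpaf2*, a chaperone of the head, differed by -0.40 at 10 µM (SE 0.15, limma adjusted p = 0.539) and -0.44 at 100 µM (SE 0.17, limma adjusted p = 0.688). In run 2 of the group-by-run fit *Atpaf2* was called at 10 µM (-0.78, SE 0.15, limma adjusted p = 0.0281). It was 1 of 4 genes called there (all genes, 1.18%), and these arrays include array 23. *Cycs* (cytochrome c) differed by 0.10 at 10 µM and 0.06 at 100 µM.

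Of 11 regulators of mitochondrial biogenesis, 7 were lower at 10 µM (9 without array 23) and 6 at 100 µM. At 100 µM, 2 lower and 1 higher had an unadjusted p under 0.05 (all genes, 6.85%). The coactivator gene *Ppargc1a* differed by -0.88 log2 units at 100 µM (SE 0.29, limma unadjusted p = 0.00827, adjusted p = 0.649). *Tfb1m*, a mitochondrial ribosomal RNA methylase, differed by -0.95 at 100 µM (SE 0.36, limma unadjusted p = 0.0188, adjusted p = 0.682). *Gabpa*, a subunit of the ETS factor GABP, was higher by 0.30 at 100 µM (SE 0.13, limma unadjusted p = 0.0356, adjusted p = 0.717). At 10 µM 0 of the 11 regulators passed an unadjusted p under 0.05.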

How the data were processed

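Total RNA of 15 biochips (100 ng each) was labelled and hybridised to rat whole-transcript arrays, 1 array per biochip, per the labels. The authors deposited log2 values per probe set; per the submitters' processing notes the tools were RMA, which corrects background, quantile-normalizes and summarises probes, and Partek, and their versions and order are not stated in those notes. The values were used as deposited. Arrays have no read depth, so their number limits precision. No column belonged to another sample (0 such columns).

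Of 29214 probe sets, 15310 had 1 gene symbol, and 14506 genes remained after taking the probe set of highest mean per gene. The 45 genes have 53 probe sets (7 genes have more than 1). Probe sets of 1 gene gave changes of the same sign in each comparison, except for *Atp5mc2* and *Atp5mc3* between the doses and *Atp5mk* between the runs, where changes were near 0. limma 3.58.1 in R 4.3.3 was fitted over all genes with group and run as terms (11 residual degrees of freedom); adjusted p-values are limma's, by Benjamini-Hochberg over 14506 genes. Levels of run 2 against run 1 came from this fit, and changes within runs and their differences between runs from a fit of 6 group-by-run cells (9 residual degrees of freedom). A fit without the run, single runs, repeated quantile normalization, leaving out dim genes, means over probe sets, array weights, another prior and leaving out each array were tried. The fits were tested on simulated data. Start-site windows and motif searches used the RefSeq table of GRCr8.

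The genes, lists and tests were chosen with earlier results of these data known. Named were genes called in any comparison, the lowest p of each complex and comparison, a fixed set of subunits, the highest and lowest mean per complex and the 3 of largest SD; *Atp5mk* and *Atp5f1e*, and the gene lists' examples beyond the lowest p, were named after their values were seen. Title numbers are not shared between groups, so they pair no arrays.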

Additional observations from a re-analysis of the deposited data

Results flagged for a closer look

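In each group of 4 to 6 arrays, the gap between the most extreme array and its neighbour was compared with the group's range by Dixon's criterion, which chance passes in about 1 in 20 groups. Of 147 groups examined, over 45 genes and the complex scores, 17 passed. Array 23 was the far one in 5 of them, all at 10 µM and all low: *Sdha* at 6.44, *Sdhb* at 8.76, *Uqcrfs1* at 7.84, *Atp5f1a* at 9.57 and the complex II score at -0.41. At 100 µM, array 15 was low for *Sdhc* (10.37), *Cox7a2l* (9.27), *Cox7b* (10.84) and the complex V score (-0.17). The same count over all genes is not given here, so 17 of 147 is not shown to be particular to these genes. Over all genes array 23 was lowest of the 15 for 17.4% and highest for 18.8%. Array 15 was lowest for 9.64% and highest for 14.7%.

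The other far values were spread over arrays. At 10 µM they were *Sdhd* at 9.55 (array 13), *Cox7c* at 10.77 (array 25) and *Atp5me* at 10.59 (array 24). At 100 µM they were *Uqcr11* at 10.16 (array 16), *Cox4i2* at 4.33 (array 27) and *Atp5pf* at 9.75 (array 26). With DMSO they were *Uqcr11* at 11.05 (array 10) and the complex II score at 0.11 (array 11). What sets these arrays apart was not tested.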

How the results depend on the processing

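No alternative of the dose model called any of the 45 genes for dose; the added group-by-run fit called *Atp5mc1* at 10 µM in run 2. None turned the sign of a change whose 95% interval excluded 0, and updating symbols through RefSeq changed 0 of the 45 genes. Over all genes, the count called at 10 µM against DMSO (0) was 7 within run 2 only, 1 after repeating quantile normalization and 1 with array weights, and 0 to 1 when each array was left out in turn. At 100 µM it was 1 within run 2 only. Between runs (79 called) it was 191 with array weights and 37 (without array 11) to 129 (without array 23) when arrays were left out; of the 45 genes, 2 were called with array weights (*Uqcrfs1* and *Cox5b*) and 0 to 1 without an array. For the difference between runs in the 10 µM change (6 called), counts were 3 after quantile normalization, 2 without dim genes, and 2 (without array 10) to 116 (without array 25); for 100 µM (1 called) they were 0 to 22 (without array 16).

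Medians by complex moved with the run. At 10 µM, complex III was 0.042 in run 2, complex IV 0.12 in run 2, -0.062 in run 1 and -0.0035 with array weights, and complex V 0.072 in run 2. At 100 µM, complex IV was -0.054 in run 1, and complex V was -0.0078 in run 2 and -0.17 in run 1. Complex II was -0.16 in run 2 and 0.0023 in run 1 at 10 µM, and -0.037 and 0.099 at 100 µM. Complex III at 100 µM was 0.012 in run 2 and -0.077 in run 1. For 100 µM against 10 µM in run 2, complex II was 0.19 and complex III 0.12, and in run 1 complex IV was 0.018. The cause was not tested. Values without array 23 for single genes, pathway lists and cell markers, and counts of differences between runs without single arrays, were chosen after seeing the data. No paired analysis was possible because title numbers are not shared between groups.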

Other observations

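In the DMSO arrays alone, the genes of the citric acid cycle and of mitochondrial biogenesis were mostly higher in run 2 than in run 1. Of the 11 citric acid cycle genes, 11 were higher in run 2 than in run 1, with a median difference of 0.17 log2 units, and of the 11 biogenesis regulators 10 were higher, with a median of 0.20. Among the 45 genes of complexes II to V, 17 were higher and 28 lower (all genes, 51.7% lower), with a median of -0.09, beside -0.007 over all genes. Complex IV had 11 of 15 lower, complexes II and III 4 of 7 each and complex V 9 of 16. These are descriptions of 3 arrays against 2.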
